A study of Homo sapiens with 12 samples.

Results

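The comparison described here set 1 knockout clone carrying EGFP against the same clone carrying ALDH1B1. It comprised 6 of the 12 libraries of the series, 3 for each construct, taken by their column names. Each library was made from polyadenylated RNA of SW480 cells, a human colorectal adenocarcinoma line grown in RPMI-1640 medium with 10% fetal bovine serum and penicillin-streptomycin. Both groups carried the ALDH1B1 knockout. One group expressed EGFP, a fluorescent protein that served as the control, and the other expressed ALDH1B1 again. The remaining libraries, used only where a difference between the experiments is given, came from parental SW480 cells exposed for 24 h either to DMSO, the solvent, or to an ALDH1B1 inhibitor at 2 µM that its labels call selective. Differences are given as EGFP minus ALDH1B1 on the log2 scale, so that a positive value means a higher level in the cells without re-expression. The table of the clone listed 29667 genes, of which 17404 passed a filter on low counts and were tested. Gene lists by role served to order the results.

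As a model the comparison has limits that touch every value below. It rests on 1 clone, and the labels do not name the promoter of either construct. Each group has 3 replicates that the submitters call biological, and the spread behind each p-value is that among cultures of a single clone. ALDH1B1 (hg38 chromosome 9, 38392664 to 38398661, plus strand) stood at 103, 96.7 and 99.8 CPM (read counts scaled to the library size after TMM normalisation) in the ALDH1B1 libraries. With EGFP it stood at 18.4, 18.8 and 17.9 CPM, so the knockout clone still held transcript of the gene. The difference was -2.44 (SE 0.05; edgeR quasi-likelihood test, Benjamini-Hochberg adjusted p = 5.9e-13). Normalised together with the clone, the parental cells with DMSO held 49.5 CPM, between both groups, so that effects of loss and of excess cannot be told apart.

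The clone libraries held between 33128845 and 39018926 counted reads. EGFP replicate 3 stood apart, with a chi-square per degree of freedom of 10.7 and 15.9 against replicates 1 and 2, whose own value was 3.98. At an adjusted p under 0.05, 1455 genes were higher with EGFP (8.36% of those tested) and 1604 were lower (9.22%). A call was thus common, and its size was small, with a median absolute change of 0.28 among called genes. Changes of at least 2-fold were called for 145 genes in the higher direction (0.833%) and 21 in the lower one (0.121%). DESeq2 called 85 such changes in all, against 166 with edgeR. Leaving out single libraries moved the number of calls by over 1.5 times for ALDH1B1 replicate 1 (1670 calls), ALDH1B1 replicate 2 (1371) and EGFP replicate 1 (1907). Keratins 8, 18 and 19, markers of colon epithelium, were high in every library, while VIL1 and LGALS4, markers of differentiated enterocytes, stayed under 0.6 CPM. The summed level of 9 colon epithelium markers was 7600 to 8020 CPM with ALDH1B1 and 6560 to 6871 CPM with EGFP. Of 8 tested, KRT19 fell by 0.46 (SE 0.04), KRT8 by 0.23 (SE 0.04) and KRT18 by 0.16 (SE 0.05), while CDX2 rose by 0.31 (SE 0.06) and VIL1 and GPA33, both under 0.6 CPM, by 1.72 (SE 0.49) and 1.54 (SE 0.45). Their part in the results was not tested.

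Cells shape their surroundings through secreted ligands, through extracellular proteins that bind or inactivate those ligands, and through the matrix and adhesion receptors that hold them in place. G protein-coupled receptors pass extracellular signals to G proteins, whose alpha and beta-gamma subunits act on enzymes such as phospholipase C beta. In colorectal cancer cells with truncated APC, among them SW480, the Wnt pathway is active without a ligand, and several secreted Wnt antagonists are themselves transcribed from it. ALDH1B1 is a mitochondrial aldehyde dehydrogenase, an enzyme that oxidises aldehydes to carboxylic acids.

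The direction of change followed the level of a gene, which bears on every list of low-level genes. Among 3155 tested genes under 1 CPM, 86 were higher with EGFP and 11 lower, with a median of 0.15. Among 2351 genes over 100 CPM the order was the opposite, with 146 higher and 659 lower and a median of -0.07. From 5 to 20 CPM the counts were 412 and 137 of 3178 genes, and from 20 to 100 CPM they were 544 and 761 of 5701. The 6 libraries showed the same order, since the median deviation of genes over 100 CPM from their own mean lay between 0.03 and 0.04 (log2(CPM + 0.5)) in the ALDH1B1 libraries and between -0.04 and -0.02 in the EGFP libraries. Counts within lists are therefore also given for members with a mean of at least 5 CPM, where 9.81% of all 11230 genes were higher and 13.9% lower. The trend continued above that limit, with 4.31% lower from 5 to 20 CPM and 28.0% lower over 100 CPM, so these counts are not matched for level.

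**Figure D1:**
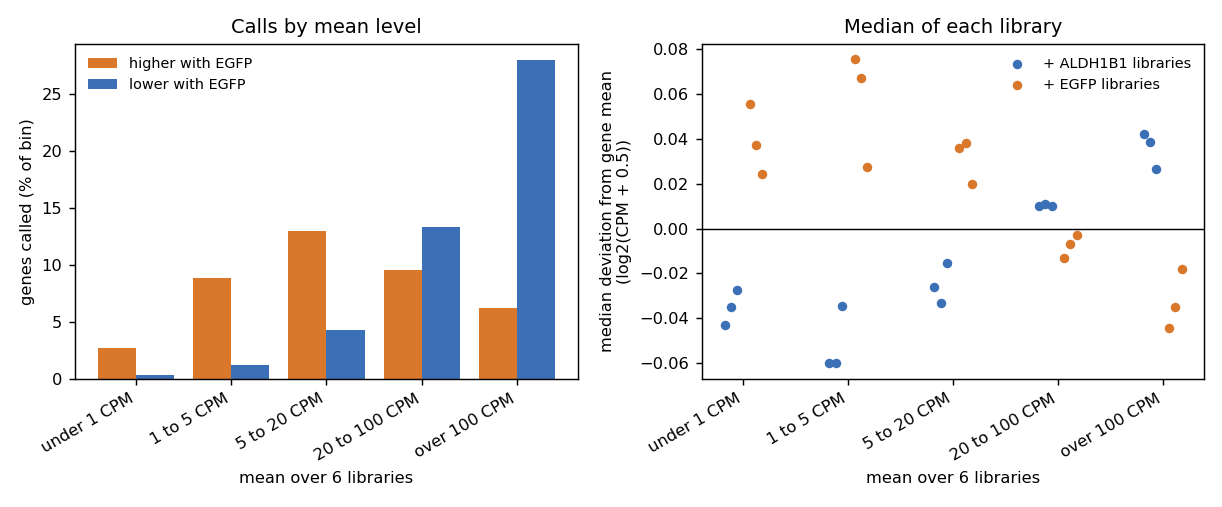
Left, the percentage of tested genes called higher or lower with EGFP (edgeR, adjusted p under 0.05) in 5 ranges of mean CPM. Right, the median deviation of each library from the gene means in the same ranges, on the log2(CPM + 0.5) scale; below 20 CPM all EGFP libraries lie above 0 and all ALDH1B1 libraries below it, and over 20 CPM the order is reversed.

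The largest fall of any called gene, beyond that of ALDH1B1 itself, was in HSPA6 (hg38 chromosome 1, 161524540 to 161526910, plus strand), which encodes a heat-inducible HSP70 chaperone that unstressed cells hold at low levels. Its level was 3.58, 3.45 and 4.06 CPM with ALDH1B1, from 116, 132 and 149 reads. With EGFP it was 0.486, 0.177 and 0.141 CPM, from 18, 6 and 5 reads. The libraries with ALDH1B1 were thus all more than 7 times above the highest EGFP library. The difference was -3.75 (SE 0.31; edgeR, adjusted p = 4.5e-06), and without EGFP replicate 1 it was -4.51. HSPA7, a pseudogene copy of HSPA6, had 4 reads in ALDH1B1 replicate 3 and 0 in the other clone libraries. Parental cells with DMSO held 0.222 CPM on the joint scale, close to the 0.269 CPM of the EGFP group there, against 3.73 CPM in the ALDH1B1 group.

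Because HSPA6 is a target of heat shock factors, its promoter is printed with those of 2 other chaperone genes that fell with it and hold the same motif. Capitals mark matches to GAANNTTC, the inverted repeat at the core of a heat shock element, which reads the same on both strands. Each sequence covers the 250 bases before the gene start in RefSeq on GRCh38.p14, on the strand of the gene, at chr1:161524290-161524539 (plus) for HSPA6, chr11:90223050-90223299 (minus) for CHORDC1 and chr6:31815293-31815542 (plus) for HSPA1A.
HSPA6: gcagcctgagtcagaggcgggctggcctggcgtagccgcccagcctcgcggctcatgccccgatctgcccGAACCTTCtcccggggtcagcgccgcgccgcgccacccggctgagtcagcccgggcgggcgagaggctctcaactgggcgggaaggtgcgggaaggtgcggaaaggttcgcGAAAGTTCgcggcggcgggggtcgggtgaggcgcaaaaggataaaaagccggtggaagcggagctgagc
CHORDC1: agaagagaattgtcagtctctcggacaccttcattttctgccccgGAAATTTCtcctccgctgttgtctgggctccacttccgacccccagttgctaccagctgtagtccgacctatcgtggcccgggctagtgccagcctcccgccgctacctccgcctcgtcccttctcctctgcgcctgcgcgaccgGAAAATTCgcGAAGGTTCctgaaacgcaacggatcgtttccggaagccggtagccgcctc
HSPA1A: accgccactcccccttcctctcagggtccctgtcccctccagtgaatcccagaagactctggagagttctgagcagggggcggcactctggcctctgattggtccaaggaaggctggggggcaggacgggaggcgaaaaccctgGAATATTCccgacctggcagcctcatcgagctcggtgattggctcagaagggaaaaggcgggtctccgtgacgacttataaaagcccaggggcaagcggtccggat
The window searched ran from 250 bases before to 50 after each start. It held 2 matches for HSPA6, 3 for CHORDC1 and 1 for HSPA1A, and at least 1 match stood in 6.79% of 34796 distinct promoters. At least 2 stood in 0.394% of them. DNAJB1, HSPD1 and HSP90AA1 held at least 1 match at some of their listed starts, and HSPH1 and HSPE1 held 0. HSPA1B, which was at -0.08 (SE 0.06) and not called, held 1. These matches are a description of the letters, and binding of a factor was not measured.

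The other chaperone genes were chosen after their values were seen, and they moved far less than HSPA6. CHORDC1, which encodes an HSP90 co-chaperone, stood at 67.5, 68.0 and 66.2 CPM with ALDH1B1 and at 53.3, 50.4 and 51.6 CPM with EGFP, a fall of -0.38 (SE 0.05). HSPA1A, an inducible HSP70 gene with a near-identical neighbour, HSPA1B, stood at 55.1, 47.6 and 46.6 CPM against 40.6, 38.7 and 37.5 CPM, a fall of -0.35 (SE 0.07). The groups did not overlap for either gene, as in 35.2% of all tested genes. HSPE1, the mitochondrial co-chaperonin, fell by 0.71 (SE 0.07), HSPH1 by 0.32 (SE 0.04), HSP90AA1 by 0.24 (SE 0.05) and DNAJB1 by 0.22 (SE 0.04), each with an edgeR adjusted p under 0.05. HSPA1B, at -0.08, BAG3, at -0.05, HSPB1, at -0.09, HSPA8, at -0.11, and HSF1, the heat shock factor gene itself, at -0.16 (edgeR, adjusted p = 0.051), did not pass. Reads cannot be divided with certainty between HSPA1A and HSPA1B.

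**Figure D2:**
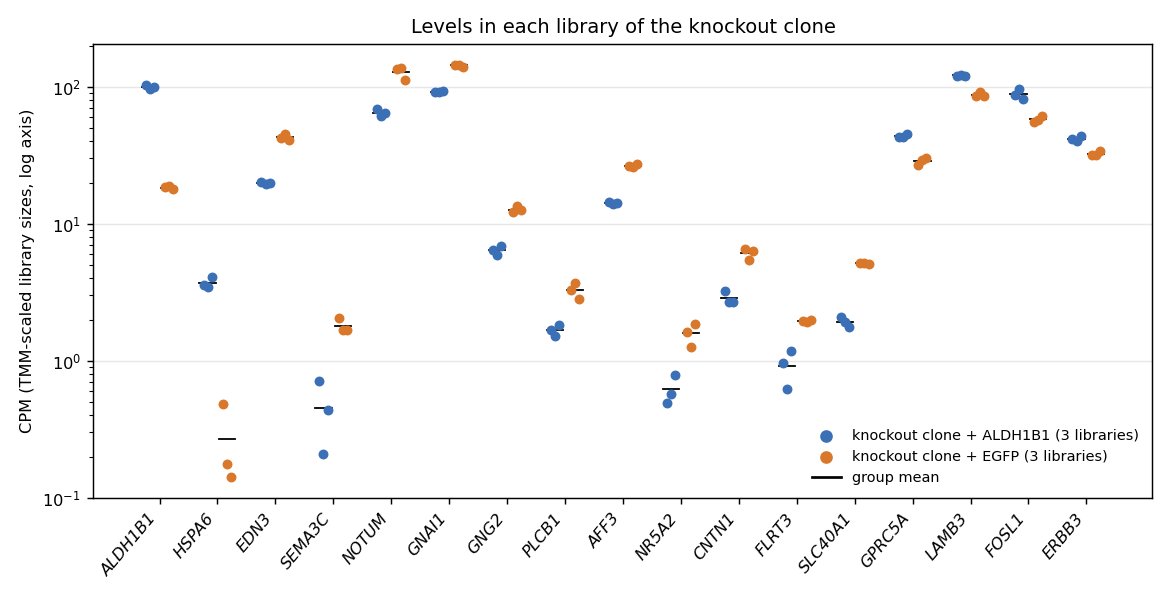
CPM of 17 named genes in each of the 6 clone libraries on a log axis, with the mean of each group of 3 as a line. HSPA6 lies between 3.45 and 4.06 CPM with ALDH1B1 and at or under 0.486 CPM with EGFP. EDN3 lies between 19.4 and 20.3 against 40.9 to 45.2 CPM. No gene shown has groups that overlap, which was a condition for naming most of them and held for 35.2% of all tested genes.

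Secreted ligands were more often higher than lower in the cells with EGFP. Of 126 tested growth factor, cytokine, peptide hormone and guidance ligand genes, 27 were higher and 7 lower, with a median of 0.12 beside 0.01 over all genes. At a mean of at least 5 CPM, 20 of 56 were higher (35.7%) and 6 lower (10.7%). EDN3 (hg38 chromosome 20, 59300427 to 59325992, plus strand), which encodes endothelin 3, a peptide ligand of endothelin receptors, stood at 20.3, 19.4 and 19.7 CPM with ALDH1B1 and at 42.2, 45.2 and 40.9 CPM with EGFP. Every EGFP library was thus about double every ALDH1B1 library. The rise was 1.11 (SE 0.06; edgeR, adjusted p = 8.7e-08). Parental cells held 1.16 CPM of EDN3 on the joint scale, far under both groups of the clone.

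Among the ligands, SEMA3C had the largest rise of the list and of all genes that met the rule for naming. This secreted semaphorin, a guidance cue that signals through plexins and neuropilins, stood at 0.711, 0.209 and 0.436 CPM with ALDH1B1 and at 2.05, 1.68 and 1.69 CPM with EGFP. All EGFP values were higher, which the rule for naming required, at levels that remain low in both groups. The difference was 2.02 (SE 0.34; edgeR, adjusted p = 0.0010). Its paralog SEMA3A, chosen after its values were seen, rose by 1.15 (SE 0.08) from 9.30, 10.9 and 9.62 CPM to 21.7, 21.3 and 23.1 CPM. Parental cells held 204 CPM of SEMA3A on the joint scale. IGF1, a growth factor gene, rose by 1.26 (SE 0.32), but 82.4% of its transcript overlaps HELLPAR on the opposite strand and the strand setting of the counting is not known, so its reads cannot be assigned with certainty. That call ended without ALDH1B1 replicate 1 or EGFP replicate 2.

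Falls among the ligands were smaller. UCN2, which encodes urocortin 2, a peptide related to corticotropin-releasing hormone, fell by 0.84 (SE 0.21), from 2.66, 2.82 and 1.91 CPM to 1.49, 1.36 and 1.27 CPM. WNT9A, a Wnt ligand, fell by 0.53 (SE 0.13), from 10.7, 8.99 and 9.08 CPM to 8.05, 6.11 and 5.74 CPM. In both genes the groups lay close to each other, without the overlap that the rule for naming excluded. The UCN2 call ended without ALDH1B1 replicate 1 or 2, and the WNT9A call without ALDH1B1 replicate 1. Chosen after their values were seen, the fibroblast growth factor genes FGF3 and FGF19, which lie close together on chromosome 11, fell by 0.50 (SE 0.08) and 0.39 (SE 0.04). FGF19, an enterohepatic hormone, held 186, 186 and 186 CPM with ALDH1B1 and 135, 143 and 147 CPM with EGFP. TNFSF10, the gene of the death ligand TRAIL, and KITLG, the KIT ligand, rose by 0.88 (SE 0.15) and 0.70 (SE 0.09), again named after their values were seen.

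Extracellular modulators of growth factors rose in a larger share than the members of any other list named here. Of 38 tested genes 12 were higher and 4 lower, with a median of 0.17, and at 5 CPM or more 10 of 24 were higher (41.7%) and 4 lower (16.7%). NOTUM (hg38 chromosome 17, 81952507 to 81961840, minus strand), a secreted enzyme that removes the lipid from Wnt proteins, stood at 69.0, 60.8 and 64.5 CPM with ALDH1B1 and at 135, 137 and 113 CPM with EGFP. The lowest EGFP value, that of the library standing apart, was still well above the highest ALDH1B1 value. The rise was 0.99 (SE 0.07; edgeR, adjusted p = 1.2e-06), and the parental level was 538 CPM on the joint scale. DKK4 and DKK3, members of the Dickkopf family that were chosen after their values were seen, rose by 0.91 (SE 0.10) and 0.65 (SE 0.06). DKK4, a Wnt antagonist, went from 7.42, 6.27 and 7.88 CPM to 13.8, 13.3 and 13.3 CPM.

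IGFBP5, a binding protein of insulin-like growth factors, stood at 1.27, 2.22 and 1.80 CPM with ALDH1B1 and at 5.75, 4.76 and 4.98 CPM with EGFP. The rise was 1.54 (SE 0.18; edgeR, adjusted p = 9.3e-05), with groups far apart. IGFBP3, of the same family, went the other way by -0.20 (SE 0.05), and NBL1, which encodes a BMP antagonist, by -0.27 (SE 0.08). Of NBL1, 17.8% is shared with a read-through gene. Both calls were fragile, since that of IGFBP3 ended without ALDH1B1 replicate 1 or 3, without EGFP replicate 1 and in the fit over 12 libraries, and that of NBL1 without ALDH1B1 replicate 1 or 2. Without EGFP replicate 3 the NBL1 difference was -0.16.

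Matrix genes rose more often than they fell, while several genes of epithelial anchorage fell. Of 90 tested matrix genes 25 were higher and 7 lower, with a median of 0.16. At 5 CPM or more the counts were 11 (25.6%) and 7 (16.3%) of 43, so the lower share there was above the 13.9% of all genes. LAMB3, a chain of the laminin that anchors epithelial cells to the basement membrane, stood at 120, 122.8 and 120 CPM with ALDH1B1 and at 85.0, 90.9 and 86.1 CPM with EGFP. Each group kept within a narrow range, and the fall was -0.47 (SE 0.05; edgeR, adjusted p = 1.8e-05). TNC, the gene of tenascin-C, fell by 0.50 (SE 0.08), from 17.3, 19.3 and 15.8 CPM to 12.7, 12.3 and 12.05 CPM.

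Other parts of the hemidesmosome, the junction that binds that laminin, were looked up after the LAMB3 value was seen. ITGA6 and ITGB4, which encode the integrin pair of the hemidesmosome, fell by 0.30 (SE 0.04) and 0.28 (SE 0.04). ITGA6 went from 289, 298 and 301 CPM to 239, 232 and 249 CPM, and ITGB4 from 268, 263 and 258 CPM to 211, 216 and 222 CPM. PLEC, the gene of the linker plectin, fell by 0.48 (SE 0.06). These 3 genes were called in every alternative. LAMA3, at -0.04, COL17A1, at -0.68 from a level under 1 CPM, and DST, at 0.19, did not pass.

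COL5A1, a fibrillar collagen gene, rose by 1.26 (SE 0.26), from 0.834, 0.601 and 0.682 CPM to 1.92, 1.80 and 1.35 CPM. SRPX, which encodes a secreted sushi-repeat protein, rose by 1.22 (SE 0.29), from 0.742, 0.627 and 0.545 CPM to 1.97, 1.27 and 1.21 CPM, and its call ended without EGFP replicate 1. Both genes are near 1 CPM, where rises outnumbered falls across all genes. At higher levels SPARC, a collagen-binding matrix protein gene, rose by 0.64 (SE 0.08) and FBLN1, the gene of fibulin 1, by 0.54 (SE 0.06), both chosen after their values were seen. Markers of fibroblasts were measured beside these genes. Of 9 listed in the table only 4 were tested, of which 3 rose (PDGFRB, ACTA2 and COL1A2) and 0 fell. THY1, too low to be tested, stood at 0.278, 0.209 and 0.109 CPM with ALDH1B1 and at 0.0810, 0.0886 and 0.0845 CPM with EGFP. The summed level of the 9 was 26.8 to 28.3 CPM with ALDH1B1 and 35.4 to 37.0 CPM with EGFP. COL1A1 alone made up 14.6 to 15.6 CPM of that sum, and the defining markers DCN, FAP, COL3A1 and PDGFRA had means under 0.1 CPM. In bulk RNA, a change in the number of cells of a type and a change in RNA per cell cannot be told apart.

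Proteases and their inhibitors followed the same direction. Of 117 tested genes 27 were higher and 6 lower, with a median of 0.19, and at 5 CPM or more 21 of 66 were higher (31.8%) and 6 lower (9.09%). SERPINA5, the gene of the protein C inhibitor, rose by 1.07 (SE 0.28), from 0.618, 0.522 and 0.954 CPM to 1.57, 1.39 and 1.46 CPM. CPE, which encodes carboxypeptidase E, a processing enzyme of prohormones, rose by 0.94 (SE 0.26), from 0.896, 0.993 and 0.573 CPM to 1.40, 1.74 and 1.58 CPM. Each of these calls was lost in 3 alternatives, without ALDH1B1 replicate 1, ALDH1B1 replicate 2 or EGFP replicate 1 for SERPINA5 and without ALDH1B1 replicate 1, ALDH1B1 replicate 3 or EGFP replicate 2 for CPE. PLAUR, the gene of the urokinase receptor, fell by 0.32 (SE 0.06), from 28.96, 27.9 and 26.6 CPM to 22.6, 23.04 and 21.3 CPM. PCSK5, a proprotein convertase gene, fell by 0.20 (SE 0.05), and its call ended without ALDH1B1 replicate 2 or EGFP replicate 1. Chosen after its values were seen, PRSS23, a serine protease gene, had a high level and a tight spread, from 134.2, 132 and 137 CPM to 190, 191 and 193 CPM, a rise of 0.51 (SE 0.04).

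Cell adhesion genes outside the cadherins counted 25 higher and 12 lower of 118, with a median of 0.13, and 16 (21.6%) and 11 (14.9%) of 74 at 5 CPM or more. CNTN1, which encodes contactin 1, a lipid-anchored adhesion protein of neurons, stood at 3.21, 2.66 and 2.70 CPM with ALDH1B1 and at 6.51, 5.46 and 6.33 CPM with EGFP. The rise was 1.10 (SE 0.14; edgeR, adjusted p = 0.00013), within a clone whose level lay far under the 114 CPM of parental cells on the joint scale. FLRT3, a leucine-rich transmembrane adhesion protein gene, rose by 1.08 (SE 0.25), from 0.958, 0.627 and 1.17 CPM to 1.94, 1.92 and 1.97 CPM, and the call ended without ALDH1B1 replicate 2. ITGA2, the alpha subunit gene of a collagen-binding integrin, fell by 0.32 (SE 0.05), from 46.9, 49.0 and 46.5 CPM to 38.2, 36.2 and 39.6 CPM. MARVELD3, a tight junction gene that shares 18.1% with PHLPP2 on the opposite strand, fell by 0.51 (SE 0.17). Its call was the weakest of the named genes, with an edgeR adjusted p of 0.047, and ended in 7 of 12 alternatives, among them each library left out.

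A second collagen-binding integrin subunit moved against ITGA2. ITGA1, chosen after its values were seen, rose by 0.75 (SE 0.05), from 95.5, 103 and 106 CPM to 164, 164 and 182 CPM. The groups lay more than 50 CPM apart. NTM, a neural adhesion gene, rose by 0.75 (SE 0.06) at a mean of 30.8 CPM, and CEACAM1, an epithelial adhesion gene, by 1.03 (SE 0.20) at a mean of 2.57 CPM, both also named after their values were seen.

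Of 43 tested cadherin-family genes 5 were higher (11.6%) and 2 lower (4.65%), and 3 of the 5 changed at least 2-fold. At 5 CPM or more 2 of 17 were called in each direction (11.8%). The median change was 0.20 on the log2 scale, and the median level of the list was 1.25 CPM. PCDHB5, a clustered protocadherin gene whose family members resemble each other closely, rose by 1.20 (SE 0.31), from 0.896, 0.549 and 0.463 CPM to 1.73, 1.09 and 1.52 CPM. Its transcript shares 14.7% with a gene on the opposite strand, and the call ended without ALDH1B1 replicate 2, ALDH1B1 replicate 3 or EGFP replicate 1. CLSTN3, of the calsyntenins, postsynaptic cadherin-like proteins, rose by 0.37 (SE 0.05), from 54.6, 51.7 and 55.7 CPM to 71.5, 70.1 and 68.1 CPM. CLSTN2, of the same family, fell by 0.22 (SE 0.05) and PCDH1, a protocadherin, by 0.18 (SE 0.05). The PCDH1 call ended in 4 alternatives, which were the fit over 12 libraries and those without ALDH1B1 replicate 1, ALDH1B1 replicate 2 or EGFP replicate 1.

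Transcription factor genes were close to the background in the higher direction and below it in the lower one. Of 1167 tested genes with a family annotation, 122 were higher (10.5%) and 53 lower (4.54%), with a median of 0.04. At 5 CPM or more 101 of 879 were higher (11.5%) and 53 lower (6.03%), shares that were not matched for level. Basic helix-loop-helix factors counted 13 higher (23.6%) and 4 lower (7.27%) of 55, and homeobox factors 15 (12.9%) and 4 (3.45%) of 116. C2H2 zinc finger factors counted 33 (6.55%) and 8 (1.59%) of 504, both shares below the 8.36% and 9.22% of all genes. At 5 CPM or more the higher shares of the 3 families were 33.3%, 12.3% and 7.24%, beside 9.81%. AFF3 (hg38 chromosome 2, 99545419 to 100142739, minus strand), of the AF4 family of transcription elongation proteins, stood at 14.4, 13.9 and 14.1 CPM with ALDH1B1 and at 26.5, 26.1 and 27.2 CPM with EGFP. The groups lay far apart beside their spread, and the rise was 0.91 (SE 0.06; edgeR, adjusted p = 1.2e-06). Parental cells held 0.810 CPM of AFF3 on the joint scale.

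NR5A2, the gene of the orphan nuclear receptor LRH-1, rose by 1.34 (SE 0.28), from 0.494, 0.575 and 0.791 CPM to 1.62, 1.27 and 1.86 CPM. EMX2, a homeobox gene, rose by 1.00 (SE 0.32) between means of 0.690 and 1.39 CPM, and this call, with an adjusted p of 0.043, ended with DESeq2 and without ALDH1B1 replicate 1, ALDH1B1 replicate 3, EGFP replicate 1 or EGFP replicate 2. FOSL1, which encodes the AP-1 subunit FRA1, fell by 0.60 (SE 0.06), from 86.6, 96.5 and 81.4 CPM to 55.5, 57.4 and 61.4 CPM. KLF6, a zinc finger factor gene, fell by 0.43 (SE 0.05), from 66.8, 69.6 and 71.2 CPM to 50.9, 51.6 and 51.6 CPM. Both falls left a gap of about 15 to 20 CPM between the groups. Named after their values were seen, FOXA2, a pioneer factor of endoderm, rose by 0.95 (SE 0.10), from 5.50, 5.46 and 5.21 CPM to 10.5, 10.5 and 10.2 CPM, and PROX1, a homeobox gene known as a Wnt target in colon tumours, by 0.85 (SE 0.11). Parental cells held 270 CPM of PROX1 on the joint scale, and both groups of the clone were under 10 CPM. DBP, an output gene of the circadian clock, rose by 0.60 (SE 0.07).

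**Figure D3:**
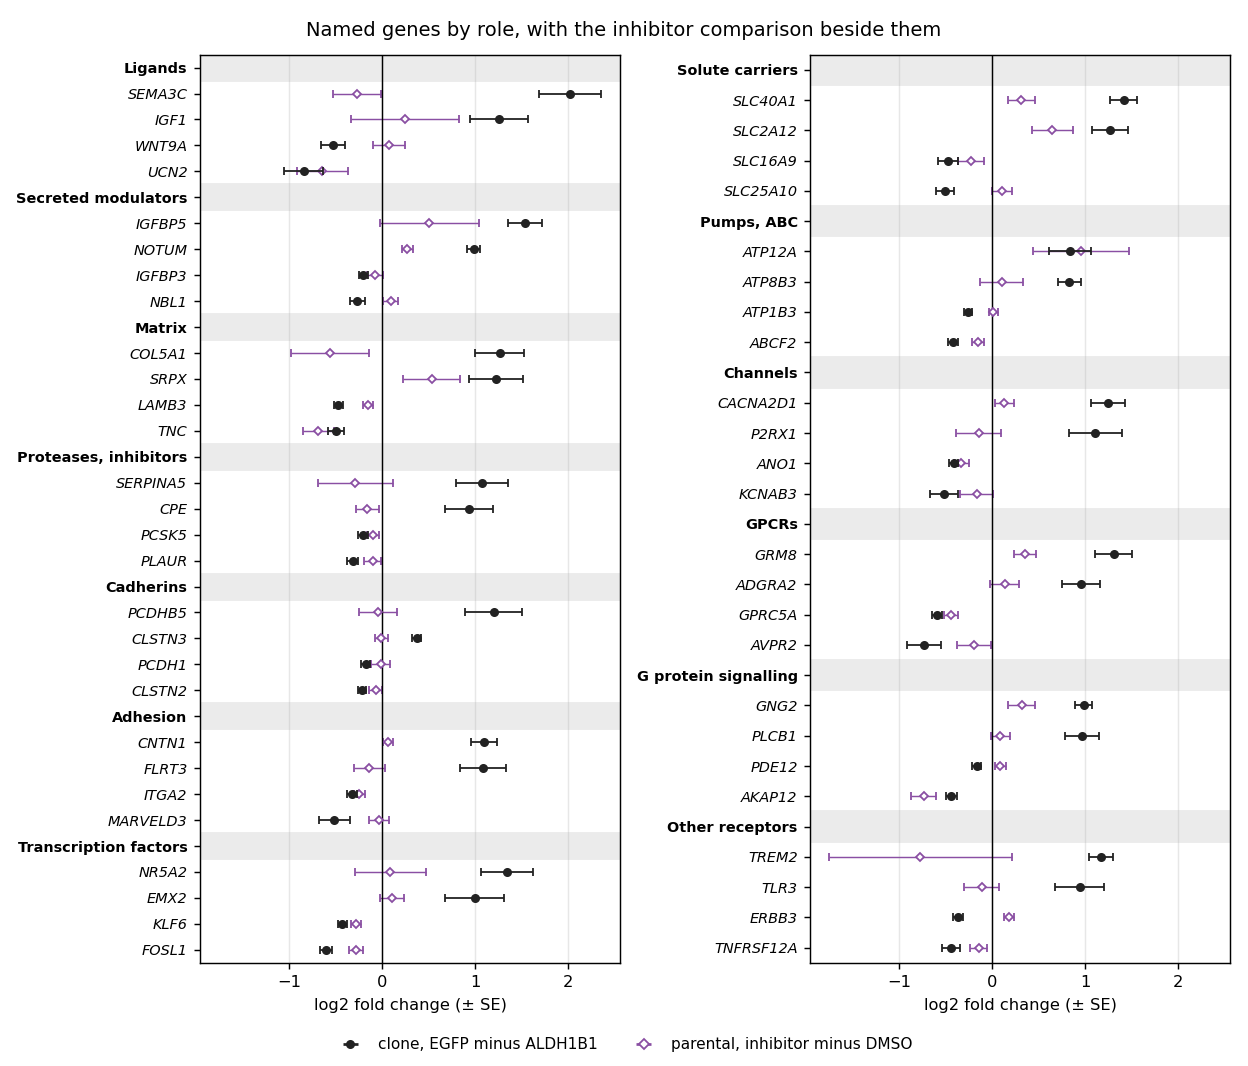
Log2 fold change with SE of the 52 genes named by role, in the clone (black, EGFP minus ALDH1B1) and for the same genes in parental cells (open diamonds, inhibitor minus DMSO). SEMA3C lies at 2.02 in the clone and at -0.27 with the inhibitor, while GPRC5A lies at -0.59 and -0.44.

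Solute carriers changed in both directions alike. Of 248 tested genes 32 were higher and 26 lower, with a median of -0.01, and at 5 CPM or more the counts were 24 (12.97%) and 25 (13.5%) of 185. SLC40A1, the gene of ferroportin, the cellular iron exporter, stood at 2.10, 1.91 and 1.77 CPM with ALDH1B1 and at 5.16, 5.20 and 5.07 CPM with EGFP. Within-group spread was small beside that gap, and the rise was 1.42 (SE 0.15; edgeR, adjusted p = 2.8e-05). SLC2A12, a glucose transporter gene, rose by 1.27 (SE 0.20), from 1.42, 1.70 and 1.20 CPM to 3.94, 2.84 and 3.63 CPM, and 38.9% of it overlaps TBPL1 on the opposite strand. SLC25A10, the mitochondrial dicarboxylate carrier gene, fell by 0.51 (SE 0.10), from 30.9, 29.1 and 25.8 CPM to 20.01, 23.2 and 16.9 CPM, with 46.6% of its transcript shared with a read-through gene. SLC16A9, of the monocarboxylate transporter family, fell by 0.48 (SE 0.11), and its call ended without ALDH1B1 replicate 2. SLC43A2, an amino acid transporter gene chosen after its values were seen, fell by 0.45 (SE 0.07) at a mean of 50.3 CPM.

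Ion pumps and ABC proteins were also divided. Of 86 tested genes 15 were higher and 9 lower, with a median of 0.02, and at 5 CPM or more 11 (17.2%) and 9 (14.1%) of 64. ATP8B3, a gene of the phospholipid flippase class, rose by 0.83 (SE 0.12), from 5.25, 4.86 and 4.72 CPM to 8.83, 7.44 and 10.1 CPM. ATP12A, the gene of the non-gastric proton-potassium pump, rose by 0.84 (SE 0.23) between means of 1.18 and 2.11 CPM, and its call ended without ALDH1B1 replicate 2, ALDH1B1 replicate 3 or EGFP replicate 2. ATP1B3, a sodium pump subunit gene, fell by 0.26 (SE 0.04), from 288, 282 and 282 CPM to 239, 233 and 239 CPM. ABCF2 fell by 0.43 (SE 0.05), shares 45.8% of its transcript with a read-through gene, and belongs to an ABC subfamily without membrane segments, so it is no pump. ABCB1, the drug efflux pump gene chosen after its values were seen, rose by 0.49 (SE 0.08), from 15.2, 16.0 and 18.1 CPM to 23.04, 21.7 and 24.5 CPM.

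Ion channel genes rose more often. Of 200 tested genes 36 were higher and 13 lower, with a median of 0.15, and at 5 CPM or more 21 (21.2%) and 12 (12.1%) of 99. CACNA2D1, an auxiliary subunit gene of voltage-gated calcium channels, rose by 1.25 (SE 0.18), from 1.58, 1.20 and 1.23 CPM to 3.16, 3.01 and 3.29 CPM. P2RX1, the gene of an ATP-gated channel, rose by 1.11 (SE 0.29), from 0.494, 1.02 and 0.818 CPM to 1.49, 2.13 and 1.49 CPM, and its call ended without ALDH1B1 replicate 1 or EGFP replicate 2. ANO1, a calcium-activated chloride channel gene, had a high level that fell by 0.42 (SE 0.05), from 394, 385 and 369 CPM to 271, 286 and 304 CPM. The gap between its groups was over 60 CPM, and 10.7% of it overlaps an antisense gene. KCNAB3, a potassium channel subunit gene, fell by 0.52 (SE 0.15) between means of 4.08 and 2.84 CPM, a call that ended without ALDH1B1 replicate 2, ALDH1B1 replicate 3, EGFP replicate 1 or EGFP replicate 2.

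G protein-coupled receptor genes counted 15 higher and 7 lower of 127, with a median of 0.06, and 7 (11.9%) and 6 (10.2%) of 59 at 5 CPM or more. Those shares lay near the background. GRM8, a glutamate receptor gene, rose by 1.31 (SE 0.20), from 2.47, 1.52 and 1.39 CPM to 4.51, 4.61 and 4.08 CPM. ADGRA2, an adhesion receptor gene that shares 23.1% with BRF2 on the opposite strand, rose by 0.95 (SE 0.20), from 2.41, 2.19 and 2.15 CPM to 4.65, 5.46 and 2.98 CPM. GPRC5A, an orphan receptor gene known as retinoic acid-inducible, fell by 0.59 (SE 0.06), from 43.0, 43.0 and 45.1 CPM to 27.1, 29.4 and 30.4 CPM. Its groups lay over 12 CPM apart. AVPR2, the gene of the renal vasopressin receptor, fell by 0.73 (SE 0.18), from 3.58, 4.88 and 3.68 CPM to 2.92, 2.30 and 2.08 CPM, and the call ended without ALDH1B1 replicate 2.

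Downstream of the receptors, genes of G protein subunits were among those that rose. Of 95 tested genes of G proteins, their regulators and second messenger enzymes, 15 were higher and 4 lower, with a median of 0.05. At 5 CPM or more 10 of 67 were higher (14.9%) and 3 lower (4.48%). GNAI1 (hg38 chromosome 7, 79768028 to 80226181, plus strand), the gene of an inhibitory alpha subunit that restrains adenylyl cyclase, stood at 91.0, 91.3 and 93.4 CPM with ALDH1B1 and at 145, 144 and 140 CPM with EGFP. The groups were separated by about 47 CPM, and the rise was 0.64 (SE 0.04; edgeR, adjusted p = 1.1e-06). GNG2, a gamma subunit gene, rose by 0.99 (SE 0.09), from 6.397, 5.93 and 6.87 CPM to 12.1, 13.4 and 12.5 CPM. PLCB1, the gene of a phospholipase C beta, rose by 0.97 (SE 0.18), from 1.67, 1.52 and 1.83 CPM to 3.27, 3.69 and 2.84 CPM.

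AKAP12, the gene of a scaffold for protein kinases A and C, fell by 0.44 (SE 0.06), from 544, 578 and 553 CPM to 392, 387 and 456 CPM. PDE12 fell by 0.17 (SE 0.05). It degrades RNA tails and oligoadenylates and not cyclic nucleotides, although its name put it on the list, and its call ended without ALDH1B1 replicate 1, ALDH1B1 replicate 2 or EGFP replicate 1.

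Among the other receptors 21 of 165 tested genes were higher and 14 lower, with a median of 0.06, and 18 (15.8%) and 14 (12.3%) of 114 at 5 CPM or more. TREM2, a lipid-sensing receptor gene best known from microglia and macrophages, rose by 1.17 (SE 0.13), from 3.37, 3.19 and 4.33 CPM to 8.43, 7.83 and 8.28 CPM. The myeloid markers CD68, CSF1R, FCER1G, ITGAM and TYROBP had means under 0.1 CPM. CD14, the remaining listed myeloid marker, stood at 1.14, 0.993 and 0.954 CPM with ALDH1B1 and at 1.46, 1.62 and 1.44 CPM with EGFP and was not called, at 0.55 (SE 0.23). The summed level of the 6 markers was 1.18 to 1.55 CPM with ALDH1B1 and 1.70 to 1.83 CPM with EGFP, and its part in the TREM2 result was not tested. TYROBP encodes the adaptor through which TREM2 signals. TLR3, a sensor gene of double-stranded RNA, rose by 0.94 (SE 0.26) between means of 0.886 and 1.69 CPM, and its call ended without ALDH1B1 replicate 2, ALDH1B1 replicate 3 or EGFP replicate 3. ERBB3, the gene of the receptor for neuregulins, fell by 0.37 (SE 0.06), from 41.8, 40.2 and 43.7 CPM to 31.8, 31.7 and 34.01 CPM. TNFRSF12A, the gene of the TWEAK receptor, fell by 0.45 (SE 0.10), from 215, 202 and 188 CPM to 157, 170 and 117 CPM, where the lowest value is that of EGFP replicate 3. NGFR and EFNB1, a neurotrophin receptor gene and a membrane ephrin gene chosen after their values were seen, fell by 0.36 (SE 0.05) and 0.35 (SE 0.05) from means of 727 and 431 CPM.

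**Figure D4:**
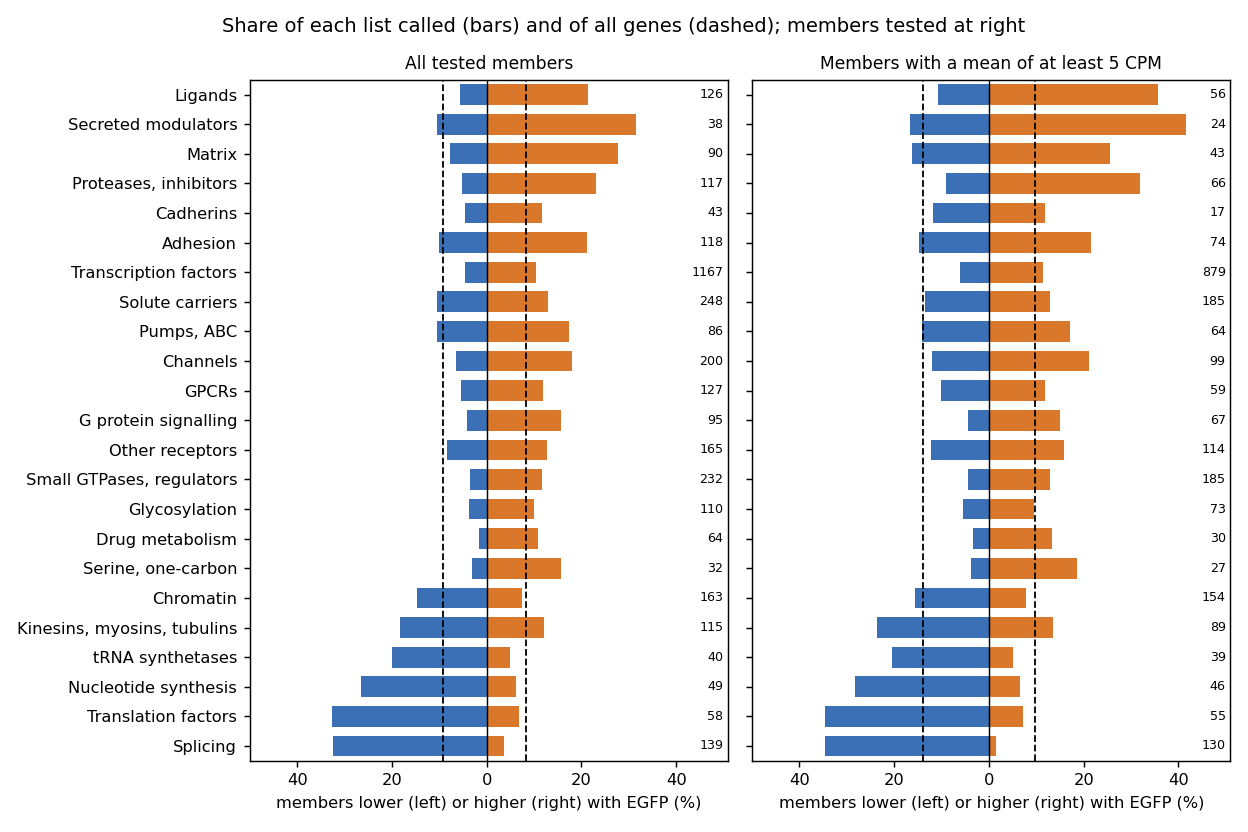
Percentage of the tested members of 23 gene lists called lower (blue, left) or higher (orange, right) with EGFP, for all tested members and for those with a mean of at least 5 CPM. Dashed lines give all genes, at 8.36% higher and 9.22% lower on the left panel and 9.81% and 13.9% on the right; secreted modulators reach 41.7% higher and splicing genes 34.6% lower on the right panel.

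Over the 13 lists described by role, 376 of 2618 tested members were higher (14.4%) and 164 lower (6.26%), beside 8.36% and 9.22% of all genes. At a mean of at least 5 CPM the shares were 15.5% and 9.05% of 1745 members, beside 9.81% and 13.9%. Leaving out single libraries moved the total of 540 by over 1.5 times for ALDH1B1 replicate 1 (331), ALDH1B1 replicate 2 (254) and EGFP replicate 1 (341). Higher calls outnumbered lower ones in all 12 alternatives for 10 of these lists. Counted over genes tested in the main fit, the exceptions were the solute carriers, the pumps and the cadherins. Solute carriers counted 32 higher and 35 lower without the filter and 26 and 28 without EGFP replicate 2. Pumps counted 14 and 15 without EGFP replicate 3, and cadherins 2 and 2 without ALDH1B1 replicate 3.

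Large rises outside these roles were at low levels. LIX1 rose by 1.86 (SE 0.28), from 0.340, 0.496 and 0.463 CPM to 1.62, 1.68 and 1.49 CPM. RNASE1, the gene of a secreted ribonuclease, rose by 1.81 (SE 0.23), from 0.711, 0.731 and 1.12 CPM to 3.51, 3.07 and 2.45 CPM. FILIP1L rose by 1.77 (SE 0.20), from 1.27, 1.28 and 0.981 CPM to 3.97, 3.31 and 4.73 CPM. The groups of these 3 genes lay well apart, though groups without overlap were a condition for naming them. FAM84A rose by 1.72 (SE 0.30) between means of 0.480 and 1.58 CPM, and KRT4, a keratin gene of stratified epithelium, by 1.62 (SE 0.17) between means of 1.60 and 4.94 CPM. For LIX1 and FAM84A the parental level was above both clone groups, at 6.89 and 27.4 CPM on the joint scale.

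Of the 21 called falls of at least 2-fold, the naming rule took ALDH1B1, HSPA6 and 4 others, which carry annotation limits. ATP5ME, an ATP synthase subunit gene, shares 61.6% of its transcript with other genes, chiefly MYL5 on the opposite strand, TAX1BP3 shares 73.8% with a read-through gene, and RPL26, a ribosomal protein gene, shares 14.3%. Their changes were -1.39 (SE 0.15), -1.16 (SE 0.15) and -1.13 (SE 0.12). AC090498.1, a processed pseudogene, stood at 4.23, 2.74 and 15.9 CPM with ALDH1B1 and at 2.35, 2.45 and 2.25 CPM with EGFP. Replicate 3 alone set its change of -1.70 (SE 0.47), which was -0.57 without that library and no longer called. DESeq2 and the fit without EGFP replicate 1 did not call it either.

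To set the clone beside the inhibitor, the difference between both comparisons was tested for each gene over all 12 libraries (EGFP minus ALDH1B1 against inhibitor minus DMSO). It passed for 974 of 19075 genes (5.11%), and the inhibitor comparison itself called 1021 (5.35%) in that fit. Of the 66 named genes, 29 had a change in the clone that differed from that with the inhibitor. Nearly all were named for their change in these same clone libraries, which raises that share, so it is no result about them. Of the 66, 12 were called with the inhibitor, each of them in the direction of the clone. GPRC5A was at -0.59 in the clone and -0.44 (SE 0.07) with the inhibitor, KLF6 at -0.43 and -0.28 (SE 0.06), FOSL1 at -0.60 and -0.28 (SE 0.08), ANO1 at -0.42 and -0.33 (SE 0.08), ITGA2 at -0.32 and -0.24 (SE 0.06) and TNC at -0.50 and -0.69 (SE 0.16). AKAP12 was at -0.44 and -0.74 (SE 0.14), and RPL26, ATP5ME and TAX1BP3, whose transcripts overlap others, were at -1.13 and -1.12 (SE 0.11), -1.39 and -1.29 (SE 0.16), and -1.16 and -1.73 (SE 0.20). For these 10 genes the test of the difference did not pass, which does not show that the changes are equal. GNAI1 and NOTUM were called with the inhibitor at 0.32 (SE 0.06) and 0.27 (SE 0.06), and for both the clone change was larger (edgeR, adjusted p for the difference = 0.030 and 9.5e-05). Levels set across the experiments come from separate tables scaled together and rest on different cells.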

How the data were processed

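Polyadenylated RNA of 12 SW480 libraries was sequenced, and the 6 of the knockout clone are described here. For every gene and library the authors deposited the number of counted reads as a raw count, per the file headers. Tools named in the submitters' processing notes are STAR, fastp and DESeq2, with hg38 as the genome. The counting program and its strand setting were not stated. All 29667 listed genes match GENCODE release 29 in span and exon length, which was used to find overlaps of transcripts on either strand. Normalised per-sample columns, 24 in all, were not used.

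The test was the edgeR 4.0.16 quasi-likelihood test in R 4.3.3 (TMM, filterByExpr, Benjamini-Hochberg, 0.05), on the 6 clone libraries with no covariate. The difference from the inhibitor comparison was tested as an interaction over 12 libraries, where 1 inhibitor column that lacks a replicate number entered as a member of its group. SE is the absolute log2 change over the root of F. In simulated counts over 17164 genes, 94 of 100 genes changed 1.5-fold and 98 of 100 changed 2-fold were recovered, with 11 false among 203 calls. The changed genes were drawn only from those with higher mean counts, and the simulated spread held no outlying library. Recovery of changes in genes near 1 CPM was therefore not measured.

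Named genes were ALDH1B1, EDN3, NOTUM, GNAI1 and AFF3, the 6 largest rises and falls over all genes, and the 2 largest in each direction of 13 lists, each called, with non-overlapping groups (as in 35.2% of tested genes) and a mean of 1 CPM or more. The members, lists and rules were chosen with earlier results of these data known. Not every gene looked up is reported here. Transcription factors were taken from the family column of the inhibitor table, and 2853 genes listed for the clone alone have no such annotation.

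Alternatives were relative log expression factors, no count filter, DESeq2 1.42.0, a replicate block, a fit over 12 libraries, a transcript length offset (mgcv 1.9.3) and each clone library left out.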

Additional observations from a re-analysis of the deposited data

Results flagged for a closer look

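For 29 of the 66 named genes the change in the clone and the change with the inhibitor differed by the edgeR interaction test over all 12 libraries, each with 3 libraries per group. The genes were named for their change in the clone libraries, which also enter this test, so the share that passed is raised by that choice. Values are the clone change minus the inhibitor change on the log2 scale. Of the 29, 2, GNAI1 and NOTUM, were called with the inhibitor, both in the direction of the clone. By sign alone 17 of the 29 were opposite, but none of these was called with the inhibitor. Some inhibitor values, such as 0.01 (SE 0.05) for ATP1B3, cannot be told from no change.

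Differences below 0 were found for HSPA6, at -4.42, ALDH1B1, at -2.48, the carrier gene SLC25A10, at -0.63, the receptor gene ERBB3, at -0.56, LAMB3, at -0.33, ATP1B3, at -0.29, and PDE12, at -0.27. ERBB3 fell in the clone and stood at 0.18 with the inhibitor, where it was not called.

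Differences above 0 in signalling genes were those of GNAI1, at 0.31, GNG2, at 0.66, ADGRA2, at 0.81, PLCB1, at 0.87, GRM8, at 0.94, and TLR3, at 1.05. Among secreted and matrix genes they were those of NOTUM, at 0.70, CPE, at 1.08, EDN3, at 1.52, COL5A1, at 1.81, and SEMA3C, at 2.29. Adhesion genes in this group were CLSTN3, at 0.37, CNTN1, at 1.03, FLRT3, at 1.21, and PCDHB5, at 1.24. Channels and carriers were SLC40A1, at 1.09, CACNA2D1, at 1.11, and P2RX1, at 1.24. The others were AFF3, at 0.99, FAM84A, at 1.57, FILIP1L, at 1.59, and LIX1, at 1.91.

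The mean level in parental cells with DMSO was above both clone groups on the joint scale for 16 of the 29 genes, between them for 4 and below both for 9. Among the 16, CNTN1 stood at 114 CPM against 2.89 and 6.12 CPM in the clone, and among the 9, EDN3 stood at 1.16 CPM against 19.99 and 42.9 CPM. How the level in the parental cells bears on the differences was not tested.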

How the results depend on the processing

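Direction held for all 66 named genes under all 12 alternatives, 732 of 792 values stayed past the threshold and 44 genes did so in every alternative; 60 values of the other 22 genes lost their call. With single libraries left out, calls ranged from 1371 to 3951 around 3059, higher calls from 673 to 1810, lower calls from 698 to 2141, changes of at least 2-fold from 101 to 211, list members from 254 to 637 and differences from the inhibitor from 392 to 1003. The lowest counts came without ALDH1B1 replicate 2 (for the differences, replicate 1) and the highest without EGFP replicate 3 (for the differences, EGFP replicate 2). DESeq2 gave 85 changes of at least 2-fold in place of 166. Same-numbered libraries correlated at 0.054, -0.046 and 0.17 in their deviations from the group means. With 3 libraries per group such deviations are tied to each other, so they cannot decide whether the numbers pair the cultures. ALDH1B1 replicates 1 and 2 correlated best with EGFP replicates 2 and 3, and only replicate 3 with its own number. A replicate block gave 3563 calls, 164 changes of at least 2-fold, 622 list members and 1068 differences. Of the differences 37.3% were positive, and 47.9% without the count filter. Genes near 1 CPM rest on few reads, which limits the precision of their changes.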

Other observations

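Gene lists outside the described roles fell into a group with more higher calls and a group with more lower calls. Of 139 tested splicing genes 45 were lower with EGFP and 5 higher, with a median of -0.12, and at a mean of at least 5 CPM the shares were 34.6% and 1.54% of 130. SNRPG and SNRPF, which encode core proteins of spliceosomal small nuclear particles, were at -0.41 (SE 0.06) and -0.33 (SE 0.05), and PTBP1, a splicing repressor gene, at -0.23 (SE 0.04). Translation factors counted 19 lower and 4 higher of 58, nucleotide synthesis 13 and 3 of 49, and aminoacyl-tRNA synthetases 8 and 2 of 40. NME1, the gene of a nucleoside diphosphate kinase, fell by 0.56 (SE 0.07). The splicing list and these lists hold genes of high level, with median levels of 95.5, 161, 81.8 and 76.1 CPM. In that range lower calls outnumbered higher ones over all genes, with 13.3% lower from 20 to 100 CPM and 28.0% over 100 CPM.

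Small GTPases and their regulators counted 27 higher and 8 lower of 232, drug metabolism 7 and 1 of 64, glycosylation 11 and 4 of 110, and serine and one-carbon metabolism 5 and 1 of 32. Their higher shares at a mean of at least 5 CPM were 12.97%, 13.3%, 9.59% and 18.5%, beside 9.81% of all genes. The share of glycosylation was thus at the background. Each lower share there was under the 13.9% of all genes, and these shares were not matched for level. FOLR1, a folate receptor gene, rose by 0.96, HAS2, the gene of a hyaluronan synthase, by 0.62, and CYP26A1, which encodes a retinoic acid hydroxylase, by 0.77. Chromatin genes counted 12 higher (7.36%) and 24 lower (14.7%) of 163, led in the lower direction by the histone methyltransferase gene KMT2D at -0.53. At a mean of at least 5 CPM their lower share was 15.6%, near the 13.9% of all genes. Among 115 kinesin, myosin, dynein, actin and tubulin genes 14 were higher (12.2%) and 21 lower (18.3%). That order turned without ALDH1B1 replicate 1 (12 and 10), ALDH1B1 replicate 2 (12 and 7) or EGFP replicate 1 (13 and 12). The neuronal kinesin genes KIF5A and KIF5C rose by 1.13 and 1.00. All genes named in these paragraphs were chosen after their values were seen.

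Chromogranin and synaptophysin genes, markers of neuroendocrine cells, were high in all clone libraries, with CHGA at 155 to 176 CPM with ALDH1B1 and 143 to 166 CPM with EGFP, and 0 of 4 listed markers were called in either direction, while NEUROD1 had a mean under 0.1 CPM. Endothelial markers summed to at most 1.67 CPM in any clone library. Lymphoid markers summed to 0.155 to 0.354 CPM with ALDH1B1 and 0.561 to 0.972 CPM with EGFP. CD79A, the only lymphoid marker tested, was called higher at 1.44, from 0.124, 0.209 and 0.327 CPM to 0.756, 0.473 and 0.591 CPM.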
